A study of Mus musculus with 9 samples.

Results

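Autophagy genes were followed in stimulated mouse CD4+ T cells of 3 Fosl2 genotypes. They are 41 of 23849 gene entries, namely every entry whose symbol is on a list of genes of the autophagosome and lysosome. Levels are FPKM, the fragments that map to a gene divided by its transcript length and by the mapped fragments of the library. Atg9b, which lies 7.74 Mb from Fosl2 on chromosome 5, is described apart from the other 40. Ulk1 and Wipi2 also lie on chromosome 5, farther from Fosl2, and are counted with the others. Each group held 3 libraries: Control, whose genotype the labels give as wt; Fosl2 Tg, in which Fosl2 is overexpressed; and Fosl2 Ko, given as Fosl2fl/fl CD4-cre+. The CD4 promoter drives Cre recombinase in developing T cells, so CD8 T cells of such mice also pass through a stage with Cre. The sources used here give neither the promoter of the transgene nor the ages of the mice, nor whether Control mice carried a floxed allele or Cre. All groups shared 1 preparation: sorted naive CD4+ T cells received antibodies to CD3 and CD28 for 24 h before RNA was taken. Separate mice per library are not stated, so each p-value reflects the variation among these 9 libraries alone, and that variation may be technical.

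Autophagy encloses cytoplasm in a double membrane, the autophagosome, and delivers it to lysosomes for breakdown. The ULK1 kinase complex starts it, a class III PI3-kinase marks the membrane, ATG9 and ATG2 bring it lipids, and a ubiquitin-like conjugation system attaches small proteins such as LC3B to it. Cargo receptors bind those proteins, and TFEB and TFE3 are transcription factors of lysosome and autophagy genes. T cells use autophagy to clear organelles and to survive after activation. FPKM measures transcript levels and not autophagic flux, and in bulk RNA fewer cells of a type and less RNA per cell cannot be told apart.

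Estimated depth was 31.7 to 57.0 M fragments per library (M, 10 to the power of 6). Fosl2 (chr5:32136472-32157839, mm10), which encodes a subunit of the AP-1 transcription factor, had FPKM of 7.77, 7.44 and 6.15 in Control, 30.9, 19.2 and 24.5 in Fosl2 Tg, whereas the libraries with the label Fosl2 Ko had 19.2, 17.8 and 17.1. Every library of both other groups was above every Control library, and the latter group had a log2 difference of 1.23 ± 0.15 (SE) from Control (limma, adjusted p = 0.00404). That direction goes against the label, and FPKM summed over a gene cannot tell which exons carried the reads, so that group is called the Ko-labelled libraries below. The sorted cell type was met by its markers: the summed FPKM of Cd3e, Cd3d, Cd3g, Cd4, Lck and Cd5 was 1174 to 1540 per library, and that of 5 B cell genes was 0.54 to 1.87. Of the 6 myeloid genes in the table, Lyz2 and Csf1r were at or near 0, and the sum of 36.7 to 40.2 was mostly Cst3. Cd68 was 1.66 to 2.70 in Fosl2 Tg, 1.18 to 1.55 in Control and 0.771 to 1.31 in Ko-labelled libraries, and Itgam was 0.502 to 1.06, 0.140 to 0.339 and 0.105 to 0.171, with Fosl2 Tg above both groups for each gene. The part of these levels in the results below was not tested. Of the CD8 T cell markers, Cd8a stayed at 0.199 to 0.462, while Cd8b1 was 5.91 to 7.14 in the Ko-labelled libraries and 10.5 to 12.5 in the others.

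Of the 41 genes, 38 had a mean of at least 1 FPKM over the 9 libraries. In Control, Gabarap was the highest, at 78.5 ± 4.85 (mean ± SD, n = 3), followed by Lamp1 at 71.0 ± 1.58, Gabarapl2 at 60.1 ± 5.10, Becn1 at 54.2 ± 0.375 and Sqstm1 at 51.9 ± 1.52 FPKM. Levels are per length and so can be set side by side between genes. Wipi1, Optn and Atg4c had a mean under 1 FPKM over the 9 libraries and were left out of the tests. Of the other 38, 37 are counted together and Atg9b is given apart.

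**Figure D1:**
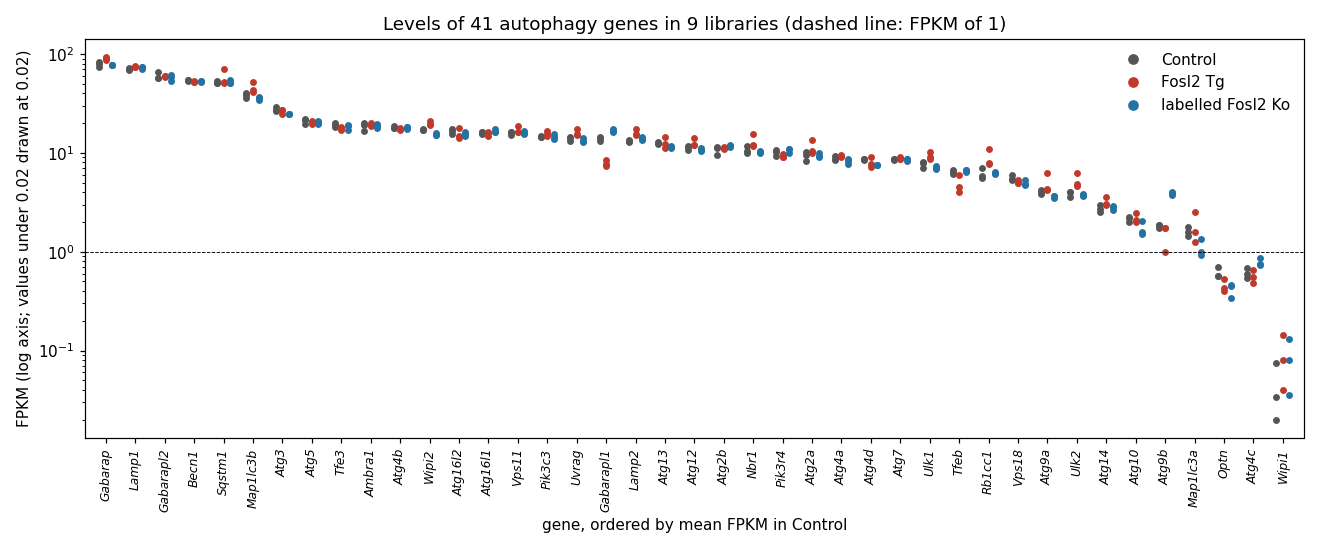
FPKM of the 41 autophagy genes in each of the 9 libraries, on a log axis, ordered by the mean in Control; each point is 1 library and the dashed line is at an FPKM of 1. Gabarap and Lamp1 stand highest, Wipi1 lowest, and Gabarapl1 and Atg9b show groups that stand clearly apart.

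In Fosl2 Tg against Control, 8 of the 37 genes passed the test, 6 higher (Rb1cc1, Ulk1, Ulk2, Wipi2, Gabarap, Lamp2) and 2 lower (Gabarapl1, Tfeb). That is 21.6%, near the 23.6% of all 10340 genes tested. Higher calls made up 16.2% of the members beside 8.53% of all genes, and lower calls 5.41% beside 15.1%. The groups did not overlap for 43.2% of the members and 45.2% of all genes, and the median log2 difference was 0.06 in the members and -0.03 in all genes. The balance of directions over all genes moved with the scaling. Higher genes were 36.1% of the calls as deposited and 46.5% with median-of-ratios scaling. They were 57.6% once small RNA genes were left out and the libraries rescaled. The members split 7 higher to 1 lower and 9 higher to 1 lower under median-of-ratios scaling and without small RNA genes. Wherever small RNA genes are left out, each library was also rescaled to the same FPKM sum of the remaining genes. With the replicate number as a block, 11 members were called over all 9 libraries and 5 in the 2 groups alone. Among all genes, these fits called 3259 of 10340 and 2403 of 10297.

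In the Ko-labelled libraries against Control, 1 of the 37 genes passed, Gabarapl1, which was higher. That is 2.70% of the members, beside 4.46% of all genes (2.14% higher and 2.32% lower). The groups did not overlap for 24.3% of the members and 32.8% of all genes. In Fosl2 Tg against the Ko-labelled libraries, 11 genes were higher and 2 lower, or 35.1% beside a background of 38.1%. Higher calls were 29.7% of the members and 17.4% of all genes, lower calls 5.41% and 20.7%, and the groups did not overlap for 48.6% and 60.4%. The 3 comparisons use the same 3 groups and are not independent.

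**Figure D2:**
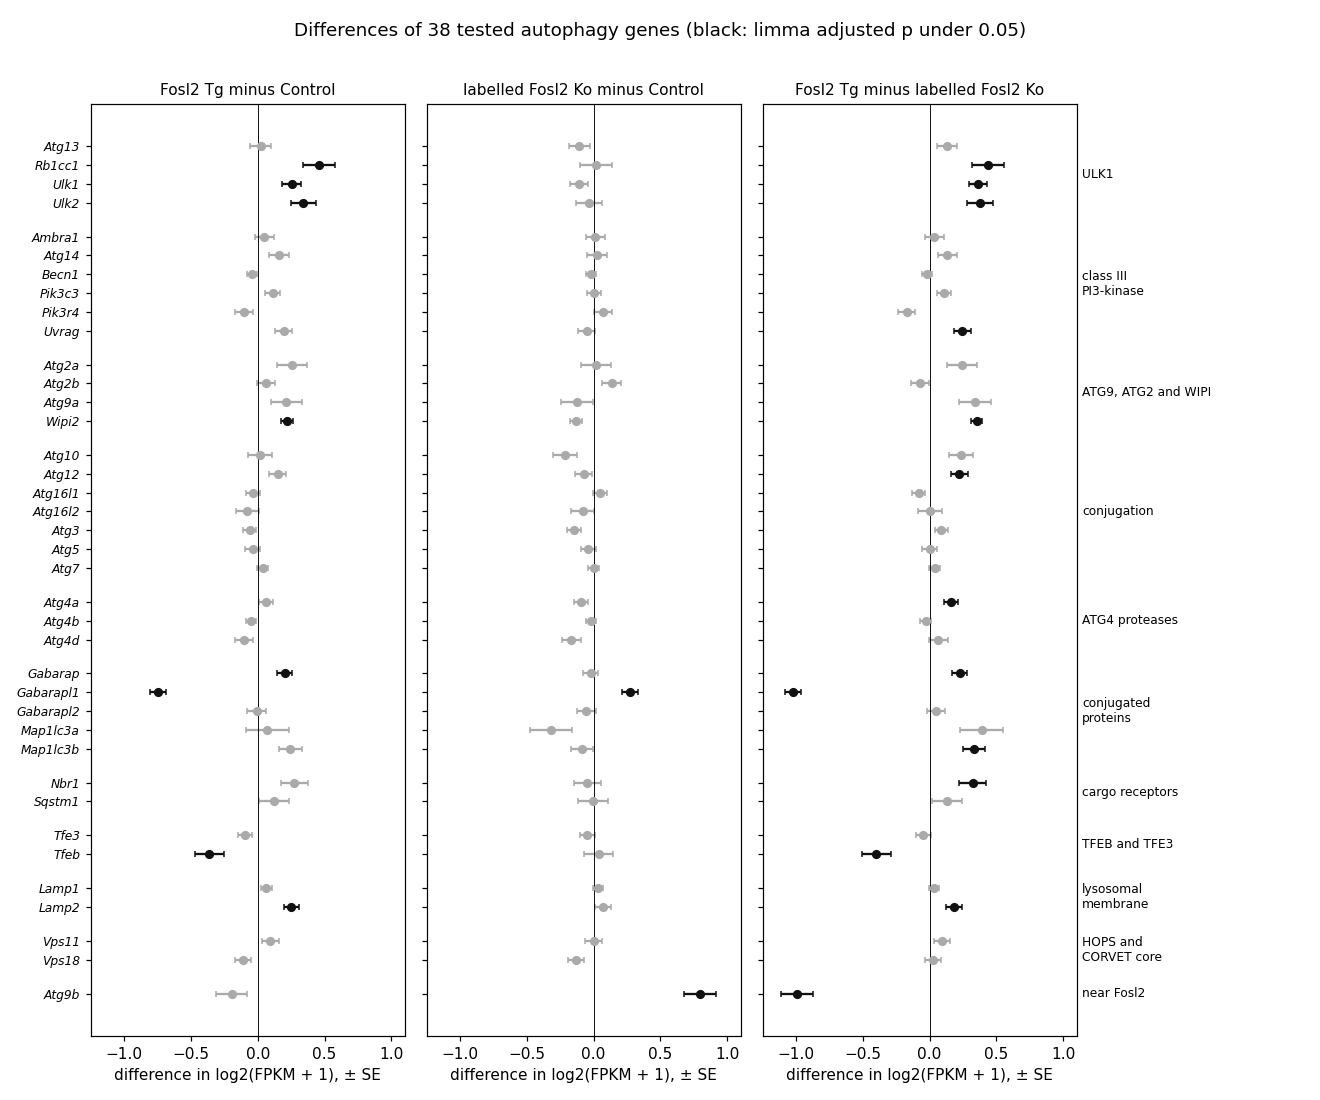
Differences in log2(FPKM + 1) of the 38 tested autophagy genes in the 3 comparisons, with the SE from limma as whiskers and the genes in order of their role; black points passed an adjusted p of 0.05. Most points lie within 0.3 of 0, Gabarapl1 lies at -0.75 in Fosl2 Tg and 0.27 in Ko-labelled libraries, and Atg9b lies at 0.80 in the latter.

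Gabarapl1, which encodes a protein attached to the growing membrane, had the largest difference of the 37 tested genes in both comparisons with Fosl2 Tg. Gabarapl1 (chr6:129533192-129542331) had FPKM of 13.0, 14.4 and 14.0 in Control. It had 7.31, 8.44 and 7.70 in Fosl2 Tg, and 16.4, 17.6 and 16.6 in Ko-labelled libraries. The 3 groups did not overlap, with Fosl2 Tg lowest and the Ko-labelled libraries highest. The log2 difference was -0.75 ± 0.06 (SE) in Fosl2 Tg against Control (limma, adjusted p = 0.000365) and -1.02 ± 0.06 in Fosl2 Tg against the Ko-labelled libraries (adjusted p = 1.65e-05). Both calls held without any 1 library and in all 12 other alternatives. The difference of the Ko-labelled libraries from Control was smaller, 0.27 ± 0.06 (adjusted p = 0.0447), and this call was lost without any 1 Control library, any 1 Ko-labelled library or Fosl2 Tg library 3, with adjusted p up to 0.176. An estimated 581 to 1903 fragments per library lie behind these levels.

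The promoter of Gabarapl1 is shown because this gene differed between all 3 groups. RefSeq places its start at the first base of the deposited entry. The sequence runs from 250 bases before to 50 after that start (GRCm38.p6, chr6:129532942-129533241, plus strand), and the capitals mark ATAAACA, a form of the element bound by FoxO factors. That element was looked for after the values were seen.
Gabarapl1: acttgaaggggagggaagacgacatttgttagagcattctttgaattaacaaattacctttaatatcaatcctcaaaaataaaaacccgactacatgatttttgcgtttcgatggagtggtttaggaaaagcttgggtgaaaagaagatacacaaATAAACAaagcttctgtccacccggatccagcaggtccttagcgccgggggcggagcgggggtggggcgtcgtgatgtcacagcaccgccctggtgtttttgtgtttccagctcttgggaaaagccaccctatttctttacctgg
Searched on both strands, GTAAACA or ATAAACA stood in 4 of the 34 members with a RefSeq promoter (Ambra1, Atg4a, Gabarapl1, Wipi2) and in 7.97% of 32851 mouse promoters. The AP-1 element TGACTCA, whose reverse complement is TGAGTCA, stood in 0 of the 34 and in 5.20% of all promoters. The longer form TGACGTCA, also searched, stood in 2 of the 34 (Atg16l2, Atg5) and in 1.79% of all promoters. A match or its lack describes the letters of this window only.

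The close relatives of Gabarapl1 moved otherwise. Gabarap (chr11:69991370-69994949) had FPKM of 79.8, 73.2 and 82.6 in Control, 93.2, 91.2 and 86.6 in Fosl2 Tg, and 77.0, 77.8 and 76.7 in Ko-labelled libraries. All Fosl2 Tg libraries were above the 6 others, with a log2 difference of 0.20 ± 0.05 from Control (limma, adjusted p = 0.0344; 0.0889 in the 2 groups alone with the replicate block) and 0.22 ± 0.05 from the Ko-labelled libraries (adjusted p = 0.0151). Map1lc3b, which encodes LC3B (chr8:121590468-121598047), had 38.2, 36.1 and 40.2 in Control, 52.0, 41.4 and 43.3 in Fosl2 Tg, and 37.0, 35.9 and 34.6 in Ko-labelled libraries. Fosl2 Tg again lay above both other groups, with library 1 highest. The difference from the Ko-labelled libraries passed (0.33 ± 0.08, limma adjusted p = 0.0172); that from Control, 0.24 ± 0.08, did not (adjusted p = 0.0655), although it passed with the replicate number as a block over all 9 libraries (adjusted p = 0.0463) and not in that fit of the 2 groups alone (adjusted p = 0.0781). Gabarapl2 passed in no comparison, with 60.1 in Control, 59.6 in Fosl2 Tg and 57.8 in Ko-labelled libraries. Map1lc3a, encoding LC3A, was low, at 0.927 to 2.49 FPKM over the 9 libraries, and did not pass either.

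The ULK1 complex held the largest share of called members, 3 of 4 in Fosl2 Tg against Control, all higher. Rb1cc1 (chr1:6214662-6276104) encodes FIP200, the scaffold of the complex. Its FPKM was 6.95, 5.84 and 5.62 in Control, 10.9, 7.74 and 7.98 in Fosl2 Tg, and 6.22, 6.39 and 6.04 in Ko-labelled libraries. Every Fosl2 Tg library lay above the 6 others, library 1 farthest, and the log2 difference from Control was 0.46 ± 0.12 (limma, adjusted p = 0.0303). The kinase gene Ulk1 (chr5:110784489-110810081) had 8.04, 7.86 and 7.08 in Control, 10.3, 8.58 and 9.12 in Fosl2 Tg, and 7.28, 6.80 and 6.97 in Ko-labelled libraries. Its groups Fosl2 Tg and Control did not overlap, and the difference was 0.25 ± 0.07 (adjusted p = 0.0369). The related kinase gene Ulk2 (chr11:61775598-61855092) had 4.02, 4.01 and 3.60 in Control, 6.26, 4.58 and 4.80 in Fosl2 Tg, and 3.66, 3.82 and 3.78 in Ko-labelled libraries. Here too the Fosl2 Tg libraries were the 3 highest of the 9, with a difference of 0.34 ± 0.10 from Control (adjusted p = 0.0375). Atg13, the adaptor of the complex, did not pass, with 12.5 in Control and 12.7 in Fosl2 Tg. Against the Ko-labelled libraries, the same 3 genes were higher in Fosl2 Tg, by 0.44 ± 0.12 for Rb1cc1 (adjusted p = 0.023), 0.36 ± 0.07 for Ulk1 (adjusted p = 0.00639) and 0.38 ± 0.10 for Ulk2 (adjusted p = 0.0177). The Ulk1 call of that comparison held without each single library, and the others were lost without any 1 Ko-labelled library. Against Control, all 3 calls were lost without Control library 2 or 3 or any 1 Ko-labelled library, with adjusted p up to 0.0979 for Rb1cc1, 0.109 for Ulk1 and 0.114 for Ulk2. That of Ulk1 was also lost without Fosl2 Tg library 1 or 3, and that of Ulk2 without Control library 1. In the 2 groups alone with the replicate block, Rb1cc1 passed (adjusted p = 0.0154), and Ulk1 (0.0542) and Ulk2 (0.0505) did not.

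**Figure D3:**
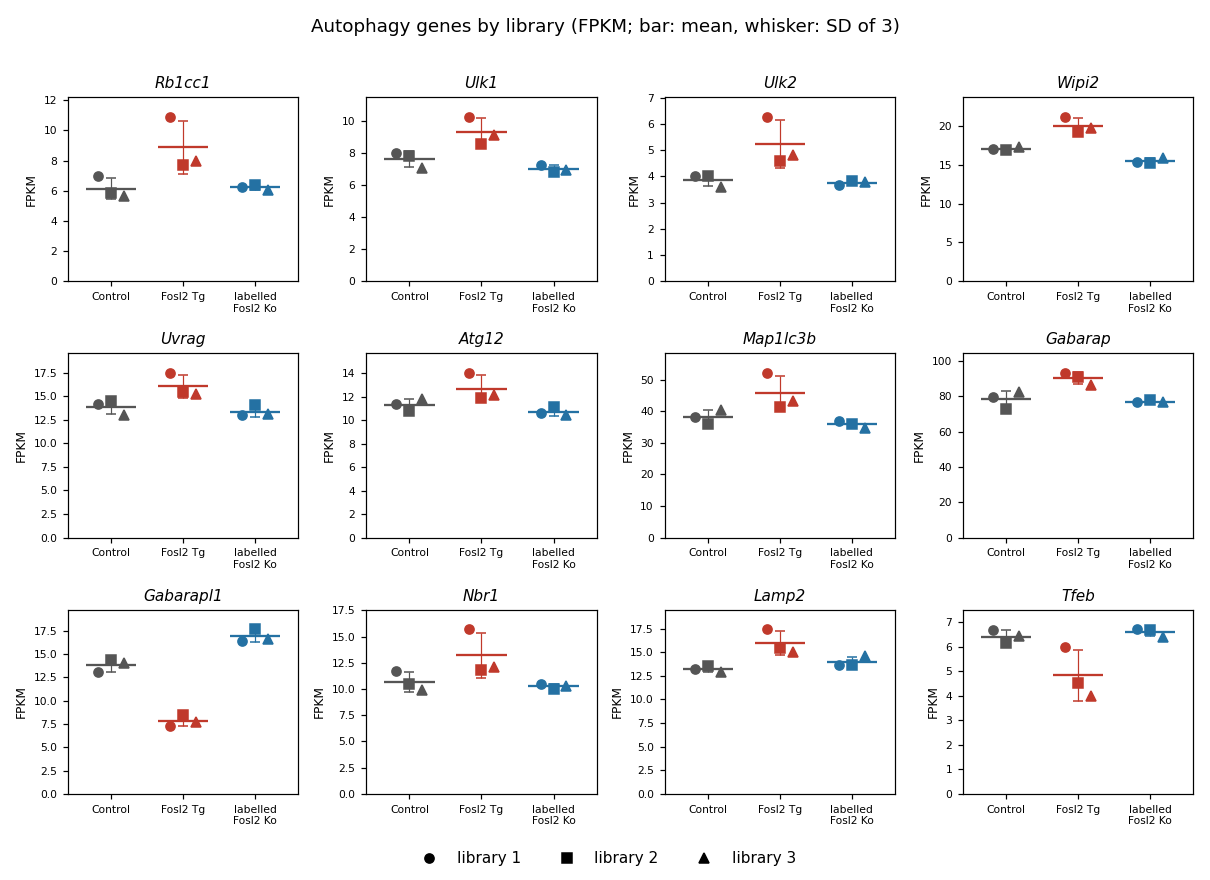
FPKM by library of 12 autophagy genes past the threshold in at least 1 comparison, on axes that start at 0; the horizontal bar is the mean and the whisker the SD of 3 libraries, and the symbol gives the library number. Gabarapl1 separates the 3 groups, Tfeb is lower in Fosl2 Tg, and for most others Fosl2 Tg library 1 is the highest point.

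Of the class III PI3-kinase genes, 0 of 6 passed in Fosl2 Tg against Control by limma, and 1 of the 6 had an unadjusted p under 0.05. Becn1 (Beclin 1) was at 54.2 ± 0.375 in Control, 52.6 ± 1.11 in Fosl2 Tg and 53.3 ± 0.631 in Ko-labelled libraries. Uvrag (chr7:98886743-99141144), a Beclin 1 partner, had FPKM of 14.1, 14.5 and 13.1 in Control, 17.5, 15.4 and 15.3 in Fosl2 Tg, and 13.0, 14.1 and 13.1 in Ko-labelled libraries. It was highest in the 3 Fosl2 Tg libraries, and passed against the Ko-labelled libraries (0.24 ± 0.06, limma adjusted p = 0.0201) but not against Control (0.19 ± 0.06, adjusted p = 0.0606). Ambra1 was at 18.6, 19.2 and 18.7 in the 3 groups in the same order, Pik3c3 at 14.5, 15.8 and 14.6, Pik3r4 at 10.1, 9.28 and 10.6, and Atg14 at 2.74, 3.18 and 2.80. None of these 4 passed in any comparison.

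Among the genes that act as the membrane grows, Wipi2 passed in both comparisons with Fosl2 Tg. It encodes a protein that binds the lipid made by the PI3-kinase and recruits ATG16L1. Wipi2 (chr5:142629584-142669370) had FPKM of 17.0, 17.0 and 17.3 in Control, 21.2, 19.2 and 19.7 in Fosl2 Tg, and 15.3, 15.3 and 15.9 in Ko-labelled libraries. The 3 groups did not overlap. Fosl2 Tg was higher than Control by 0.22 ± 0.04 on the log2 scale (limma, adjusted p = 0.0129; 0.0554 without Control library 2) and higher than the Ko-labelled libraries by 0.35 ± 0.04 (adjusted p = 0.000823). The difference of the Ko-labelled libraries from Control was -0.13 ± 0.04 (adjusted p = 0.149). Atg9a, the scramblase of the growing membrane, had 4.24, 4.05 and 3.80 in Control, 6.24, 4.19 and 4.29 in Fosl2 Tg, and 3.51, 3.65 and 3.66 in Ko-labelled libraries, and did not pass in any comparison. The lipid transfer genes Atg2a, at 9.32, 11.4 and 9.39, and Atg2b, at 10.7, 11.2 and 11.8, did not pass either.

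The conjugation genes gave 1 call in the 3 comparisons. Of Atg3, Atg5, Atg7, Atg10, Atg12, Atg16l1 and Atg16l2, limma called 0 of 7 in Fosl2 Tg against Control, where 1 had an unadjusted p under 0.05, and 0 in Ko-labelled libraries against Control, where 2 had. Atg12, the ubiquitin-like protein joined to ATG5, had 11.4, 10.8 and 11.8 in Control, 14.0, 11.9 and 12.1 in Fosl2 Tg, and 10.6, 11.1 and 10.4 in Ko-labelled libraries. It passed in Fosl2 Tg against the Ko-labelled libraries (0.22 ± 0.06, limma adjusted p = 0.0278). The conjugating enzymes Atg3 and Atg7 were at 27.4 and 8.57 in Control, 26.2 and 8.81 in Fosl2 Tg, and 24.6 and 8.57 in Ko-labelled libraries. The ATG4 proteases cut LC3 proteins before and after use. Atg4b, at 18.2, 17.6 and 18.0, and Atg4d, at 8.58, 7.96 and 7.53, did not pass. The entry named Atg4a (chr3:103643953-103646068) lies at a retrogene copy, Atg4a-ps in GENCODE, and not at the Atg4a gene (chrX:140956907-141164270). Its mean was 8.83 in Control, 9.27 in Fosl2 Tg and 8.20 in Ko-labelled libraries, with a call in Fosl2 Tg against the latter (0.16 ± 0.05, limma adjusted p = 0.0394) that was lost without 8 of the 9 libraries. Reads of the gene and of its copy cannot be told apart here.

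Of the cargo receptor genes, Nbr1 gave a call and Sqstm1 none. Nbr1 (chr11:101552107-101581951) had FPKM of 11.7, 10.5 and 9.90 in Control, 15.7, 11.8 and 12.1 in Fosl2 Tg, and 10.5, 10.0 and 10.3 in Ko-labelled libraries. Fosl2 Tg lay above both groups, with a difference of 0.27 ± 0.10 from Control (limma, adjusted p = 0.081; 0.0319 with the replicate block over all libraries and 0.0422 over the 2 groups) and 0.32 ± 0.10 from the Ko-labelled libraries (adjusted p = 0.0386). Sqstm1, encoding p62, had 51.3, 53.6 and 50.7 in Control, 69.7, 51.6 and 50.3 in Fosl2 Tg, and 54.3, 50.3 and 50.3 in Ko-labelled libraries. Only Fosl2 Tg library 1 stood apart for Sqstm1, and no comparison passed. Optn was at 0.610, 0.448 and 0.418 and not tested, as were Atg4c at 0.603, 0.565 and 0.783 and Wipi1 at 0.0361, 0.0886 and 0.0823.

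Tfeb (chr17:47737037-47792416) was lower in Fosl2 Tg, while Tfe3 did not pass. Tfeb had FPKM of 6.67, 6.14 and 6.46 in Control, 5.98, 4.53 and 4.0 in Fosl2 Tg, and 6.71, 6.71 and 6.42 in Ko-labelled libraries. The 3 Fosl2 Tg libraries were the lowest of the 9, and library 1 was the nearest to Control. The log2 difference was -0.36 ± 0.11 from Control (limma, adjusted p = 0.0452) and -0.40 ± 0.11 from the Ko-labelled libraries (adjusted p = 0.0226). The call against Control was lost without any 1 library other than Fosl2 Tg library 1, without which adjusted p was 0.0022. It was also lost in 6 of 12 other alternatives: with no filter, with the filter at an FPKM of 5, with median-of-ratios scaling, with small RNA genes left out, in the 2 groups alone, and there with the replicate block (adjusted p = 0.0536). Tfe3 was at 19.1 ± 0.855, 17.8 ± 0.602 and 18.4 ± 1.11 in the 3 groups.

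TFEB and TFE3 bind an E-box, CACGTG, in lysosome and autophagy promoters, and the extended form GTCACGTG is part of the CLEAR element. CACGTG was found in 5 of the 34 promoters (Atg14, Atg3, Atg5, Atg7, Lamp1) and in 7.15% of all mouse promoters. The extended form, which holds the shorter one, was found in 4 (not Atg5) and in 2.25% of all. The Atg7 window lies inside the deposited Atg7 entry (chr6:114643097-114860614), at a RefSeq start downstream of the first base of that entry. These stretches show the element in the members that hold it, with 1 of the 4 matches in Lamp1 (GRCm38.p6, capitals mark the match on either strand).
Atg3 (chr16:45158724-45158751): cctccttttGTCACGTGtcctgggagag
Atg3 (chr16:45158747-45158774): gagagtcgaGTCACGTGaggccttaggt
Atg7 (chr6:114670953-114670980): atattggtgGTCACGTGtgcagtaagtg
Atg14 (chr14:47568419-47568446, minus strand): aaacaaaatccCACGTGACtggccctga
Atg5 (chr10:44268314-44268341): ggagcgcttgcCACGTGgtcttggtgac
Lamp1 (chr8:13159122-13159149): atgccgactggCACGTGACcacatcacg
The log2 differences in Fosl2 Tg against Control of these 5 genes did not pass, and none of the 8 genes called there had the element in this window, of those with a RefSeq promoter (Rb1cc1 was not matched).

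The lysosomal membrane genes were Lamp1 and Lamp2, which encode its main glycoproteins. Lamp2 (chrX:38405064-38456455) had FPKM of 13.2, 13.5 and 12.9 in Control, 17.4, 15.4 and 15.04 in Fosl2 Tg, and 13.6, 13.6 and 14.5 in Ko-labelled libraries. All Fosl2 Tg libraries were above the 6 others, with a log2 difference of 0.25 ± 0.06 from Control (limma, adjusted p = 0.0209) and 0.18 ± 0.06 from the Ko-labelled libraries (adjusted p = 0.0407). Lamp1 did not pass, at 71.0 ± 1.58, 74.2 ± 0.976 and 72.6 ± 1.42. The shared subunits of the HOPS and CORVET tethers, Vps11 at 15.9, 17.0 and 15.9 and Vps18 at 5.56, 5.08 and 4.98, did not pass.

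The calls in Fosl2 Tg against Control leaned on single libraries, among the members and among all genes tested. Without Control library 2, only Gabarapl1 of the 37 genes was called, and the calls over all genes fell from 2440 to 903. Without Control library 3, 3 members and 1148 of all genes were called. Without each of the Ko-labelled libraries, which enter the shared estimate of spread, 3 members and 1506 to 1661 of all genes were called. Without Fosl2 Tg library 1, 7 members and 2066 of all genes were called. In Fosl2 Tg against the Ko-labelled libraries, the count of member calls was 5, 6 and 3 without library 1, 2 or 3 of the latter. The calls over all genes fell there from 3943 to 2590, 2174 and 2342. In the Ko-labelled libraries against Control, 4 members were called without Fosl2 Tg library 1, and the calls over all genes rose from 461 to 1249. The Gabarap call against Control was lost without Control library 2, Fosl2 Tg library 1 or 2 or any 1 Ko-labelled library (adjusted p up to 0.108), and that of Lamp2 without Control library 2 or 3 (up to 0.0656). Of the calls between Fosl2 Tg and the Ko-labelled libraries, those of Gabarapl1, Wipi2 and Ulk1 held without each single library. Those of Gabarap, Map1lc3b, Uvrag, Atg12, Nbr1 and Tfeb were each lost without at least 2 of the Ko-labelled libraries, with adjusted p of 0.0548 to 0.107 at the highest. That of Nbr1 was also lost without Control library 2, that of Tfeb without Fosl2 Tg library 2, and that of Lamp2 without any 1 library but Control library 3 and Fosl2 Tg library 3.

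Fosl2 Tg library 1 stood apart for many of these genes. It was the highest of the 9 libraries for 21 of the 37 genes, or 56.8%, beside 29.4% of all genes tested. Within its own group it was the highest for 28, or 75.7%, beside 39.5% of all genes tested. It also had the highest naive T cell markers: the summed FPKM of Ccr7, Klf2, Il7r and Tcf7 was 1082 there, 763 and 774 in the other Fosl2 Tg libraries, 555 to 620.4 in Control and 449 to 465 in the Ko-labelled libraries. Each of the 4 had its highest group mean in Fosl2 Tg and its lowest in the Ko-labelled libraries, and all but Ccr7 were highest in Fosl2 Tg library 1. The activation markers Cd69, Il2ra, Cd44, Tfrc and Nr4a1 summed to 630 to 652 in Control, 533 to 573 in Fosl2 Tg and 733 to 746 in Ko-labelled libraries. Not all 5 followed the sum: Cd69 was highest in Fosl2 Tg, at 172 ± 4.34 against 145 ± 3.69 in Control and 156 ± 4.51 in Ko-labelled libraries, and Tfrc was 173 ± 11.4 in the last group and 178 ± 6.86 in Control. The part of these marker levels in the autophagy genes was not tested. Without Control library 1 and Fosl2 Tg library 1 together, a setting added after the data were seen, 6 members were higher and 3 lower in Fosl2 Tg against Control. Of all 10318 genes tested there, 1243 were higher and 2037 lower.

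**Figure D4:**
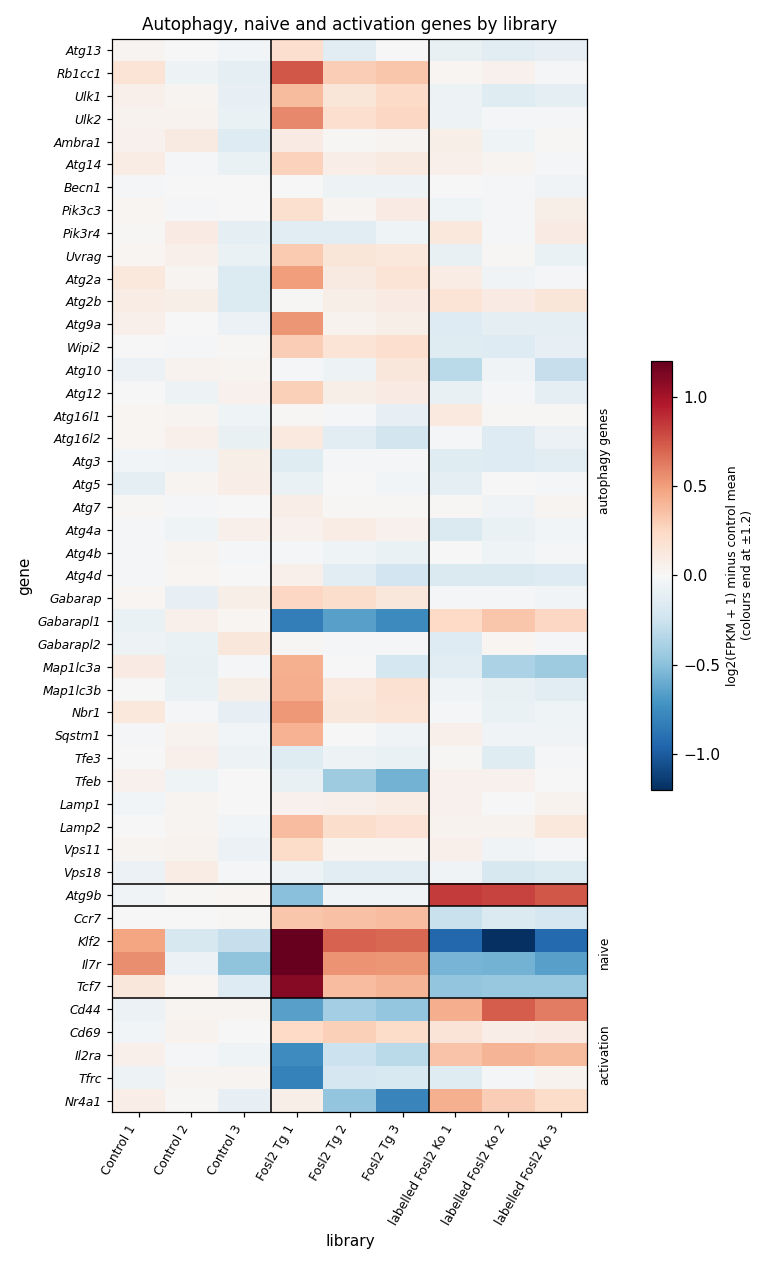
Log2(FPKM + 1) of the tested autophagy genes, of Atg9b and of the naive and activation markers, as the difference from the Control mean, with 1 column per library; red is higher and blue lower, and colours end at 1.2 in either direction. Fosl2 Tg library 1 is the reddest column for many autophagy genes and for the naive markers Klf2, Il7r and Tcf7.

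Other genes of the pathway were read in the same fit. Of 81 further symbols, 76 were found and 74 tested. In Fosl2 Tg against Control, 11 were higher and 2 lower, or 17.6% of those tested, beside the background of 23.6%. With small RNA genes left out and the libraries rescaled, 24 were higher and 0 lower, beside 1432 higher and 1056 lower of all 10165 genes. That scaling moved the median log2 difference of all genes from -0.031 to 0.059. As deposited, 3 of 9 initiation and energy-sensing genes were higher. Prkaa1, the catalytic subunit of AMP-activated kinase, went from 7.27 ± 0.288 to 8.87 ± 0.539 FPKM (limma, adjusted p = 0.0166). The sestrins Sesn3 and Sesn2 went from 31.5 ± 5.41 to 41.8 ± 0.328 (adjusted p = 0.0338) and from 5.46 ± 0.823 to 8.19 ± 1.51 (adjusted p = 0.0341). Among 9 genes of the early membrane, 2 were higher, Vmp1 and the WIPI relative Wdr45 (11.2 ± 0.819 to 16.7 ± 4.27, adjusted p = 0.0346). With each library left out in turn, the calls of Sesn3 and Sesn2 each held in 2 of 9 fits. That of Wdr45 held in 3 and that of Prkaa1 in 8. Vmp1, an endoplasmic reticulum scramblase needed for the membrane to form, had 23.3, 24.2 and 25.4 in Control, 36.4, 35.9 and 38.9 in Fosl2 Tg, and 21.2, 21.5 and 22.6 in Ko-labelled libraries. The 3 groups did not overlap for Vmp1, and its difference of 0.59 ± 0.05 from Control (adjusted p = 0.000509) held without each single library and in all 12 other alternatives.

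Of 16 further LC3 and receptor genes, 2 were higher in Fosl2 Tg than in Control, the kinase Tbk1 (17.6 ± 0.771 to 22.3 ± 1.83 FPKM, limma adjusted p = 0.00998) and the receptor Tax1bp1 (38.9 ± 1.23 to 47.8 ± 4.47, adjusted p = 0.0188). Of 12 fusion genes, 1 was higher, Snap29 (10.2 ± 0.470 to 11.6 ± 0.548, adjusted p = 0.0403). The Snap29 call held in 2 of the 9 fits that left out 1 library. Of 28 lysosome genes, 3 were higher and 2 lower. Among them were the lysosomal membrane receptor gene Scarb2 (14.7 ± 0.879 to 20.1 ± 2.80, adjusted p = 0.0156) and the sialidase gene Neu1 (14.5 ± 0.561 to 12.8 ± 0.166, adjusted p = 0.0251). Neu1 did not pass with small RNA genes left out (-0.08, adjusted p = 0.261). In the 2 groups alone with the replicate block, Sesn2, Snap29 and Neu1 did not pass. The fusion gene Tecpr1, not called against Control in the main fit (limma, adjusted p = 0.108), passed with the block over all libraries (0.0426) and in the 2 groups alone (0.0273). Without Control library 2, the 13 calls of this comparison fell to 2, those of Vmp1 and Tbk1, while those over all genes fell from 2440 to 903.

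In the Ko-labelled libraries against Control, 0 of the 74 were higher and 3 lower (4.05%, beside 4.46%), all lysosomal. Npc2, which carries cholesterol out of the lysosome, had 61.7, 55.1 and 63.4 FPKM in Control, 72.6, 60.9 and 62.9 in Fosl2 Tg, and 40.5, 45.2 and 43.6 in Ko-labelled libraries. The last group lay below the 6 other libraries, by -0.47 ± 0.08 on the log2 scale against Control (limma, adjusted p = 0.017). The others were Neu1 (14.5 ± 0.561 to 12.2 ± 0.417, adjusted p = 0.0229, 0.0851 with small RNA genes left out) and Lamtor2 (45.01 ± 2.36 to 37.7 ± 0.955, adjusted p = 0.0319). These 3 calls were each lost without any 1 Ko-labelled library. In Fosl2 Tg against the Ko-labelled libraries, 24 were higher and 3 lower, or 36.5% beside 38.1%. The smallest adjusted p of each list belonged to Prkaa1 (log2 difference 0.38 ± 0.06, limma adjusted p = 0.00166), Vmp1 (0.74 ± 0.05, adjusted p = 3.73e-05), the reticulum receptor Tex264 (0.34 ± 0.05, adjusted p = 0.00193), the tethering protein gene Tecpr1 (1.19 ± 0.29, adjusted p = 0.0159) and Npc2 (0.59 ± 0.08, adjusted p = 0.00143). Next came Sesn2, Sesn3, Wdr45, Sh3glb1, Fkbp8, Tbk1, Snap29 and Psap, all higher in Fosl2 Tg, and Hexa, which was lower.

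Atg9b, a second ATG9 protein, was higher in the Ko-labelled libraries. Atg9b (chr5:24384181-24392143) lies 7.74 Mb from Fosl2 on that chromosome. It had FPKM of 1.74, 1.85 and 1.86 in Control, 0.983, 1.73 and 1.74 in Fosl2 Tg, and 4.02, 3.93 and 3.73 in Ko-labelled libraries. All 3 libraries of the last group lay above the 6 others, and Fosl2 Tg library 1 was the lowest. The log2 difference was 0.80 ± 0.12 from Control (limma, adjusted p = 0.00901) and -0.99 ± 0.12 in Fosl2 Tg against the Ko-labelled libraries (adjusted p = 0.000632). Fosl2 Tg against Control gave -0.20 ± 0.12 (adjusted p = 0.23). The first and second of these calls held without each single library and in the 11 other alternatives that kept the gene. Atg9b overlaps Nos3 on the opposite strand, which was near 0, and an estimated 153 to 838 fragments lie behind its levels.

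**Figure D5:**
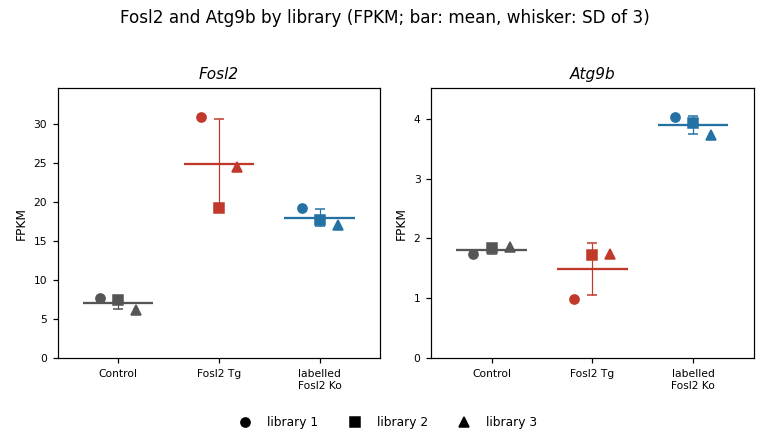
FPKM by library of Fosl2 and of Atg9b, which share a chromosome, on axes that start at 0; bars are means, whiskers the SD of 3 libraries, and symbols give the library number. Fosl2 is higher in both other groups than in Control, and Atg9b is at 3.73 to 4.02 in the Ko-labelled libraries alone.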

How the data were processed

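RNA-seq of 9 libraries was read from the FPKM values of each gene and library, as deposited by the authors and named in the headers. The submitters' processing notes name TopHat, Cufflinks, Cuffdiff and mm10. Their versions, the strand option and the annotation: not given in the sources used here. A Cuffdiff table deposited by the authors gives FPKM per group, log2 fold changes and q-values, per the file headers, and was used only for description. All columns matched a sample by name (0 unmatched). An emptied line of each table was not analysed here.

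Values were analysed as log2(FPKM + 1), a scale that understates changes of low genes. The 10340 genes with a mean FPKM of 1 or more entered 1 fit of all 9 libraries in limma 3.58.1 (R 4.3.3) with a variance trend and 6 residual degrees of freedom. All adjusted p-values are from limma, two-sided, with Benjamini-Hochberg adjustment over all genes tested, at a threshold of 0.05. The script was tested on simulated data. FPKM gives no counts: depth was estimated from the steps of low FPKM values, of which 76.3% to 82.4% lay within 0.15 of whole fragments.

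The members and the other lists were chosen with earlier results of these data known. Members past the threshold in any comparison are given in all libraries, the others by level, and up to 3 called genes of each further list by adjusted p. Some results that this choice selects are not reported here. Promoters are from RefSeq (GRCm38.p6) and 34 of 41 symbols matched. No called member held a motif searched at first, so the sequences printed were chosen after values were seen. Starts of loci were converted to count from 1.

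Same-numbered libraries of Fosl2 Tg and Control deviated together from their group means (r across genes 0.672, 0.217 and 0.433). So did Control library 3 with Fosl2 Tg library 2 (r 0.513) and Control library 2 with Fosl2 Tg library 3 (0.153). The other unlike pairs gave -0.642 to -0.213, so only the libraries numbered 1 stood apart as a pair. For that comparison the replicate block, over all libraries and in the 2 groups alone, is printed where it changes the call of a member called in any comparison or of a further pathway gene named here. Other members are only counted. The source of this pattern is not in the labels, and same-numbered libraries of other groups did not pair (r from -0.213 to 0.2). Alternatives were the pseudocount, filter, scaling, small RNA genes left out with rescaling to equal sums, array weights, fits of 2 groups, the block, and leaving out each library.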

Additional observations from a re-analysis of the deposited data

How the results depend on the processing

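Of the 102 differences computed for single genes under 21 alternatives each, as far as a gene could be fitted, 1870 values kept their side of the threshold, 214 lost a call, 52 gained one and 0 changed direction with a call. Among the 37 autophagy genes, the 8 calls in Fosl2 Tg against Control became 4 with no filter, 1 in a fit of the 2 groups alone, 21 with array weights and 5 with the replicate block in the 2 groups alone. The calls over all genes, 2440 of 10340, became 2144 of 17397, 826 of 10297, 5991 of 10340 and 2403 of 10297 in the same order. The 1 call in the Ko-labelled libraries against Control became 0 with no filter, 0 with quantile normalization, 2 in the 2 groups alone, 15 with array weights, and 3 without Control library 1 and Fosl2 Tg library 1. In that comparison, the 461 calls over all genes became 592, 476, 886, 5313 and 1284. The 13 calls between Fosl2 Tg and the Ko-labelled libraries became 8 in the 2 groups alone and 6 there with the replicate block, beside 3943, 3328 and 2933 over all genes. Of the other pathway genes, the 13 calls in Fosl2 Tg against Control became 24 with small RNA genes left out, 2 in the 2 groups alone and 39 with array weights. All genes gave 2488, 826 and 5991 calls there. The 3 calls in the Ko-labelled libraries against Control became 8 in the 2 groups alone, 40 with array weights and 11 without Control library 1 and Fosl2 Tg library 1, beside 886, 5313 and 1284 over all genes. The 27 calls between Fosl2 Tg and the Ko-labelled libraries became 47 with array weights, beside 5826 over all genes. The estimation of array weights stopped before it converged. Fits of 2 groups have fewer samples; the cause of the other shifts was not tested. The 2-group block and the fit without both libraries 1 were added after seeing the data.

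Leaving out each library in turn gave 1 to 7, 0 to 4 and 3 to 14 calls among the autophagy genes in the 3 comparisons in the order above, and 2 to 14, 0 to 11 and 18 to 30 among the other pathway genes. The calls over all genes ranged there from 903 to 2534, 169 to 1249 and 2174 to 4113. With the replicate block over the 9 libraries, autophagy calls were 11, 1 and 15, other pathway calls 19, 2 and 33, and calls over all genes 3259, 491 and 4589. For 3 of the 9 libraries, the same-numbered library was the closest one in each of the other 2 groups. In the Ko-labelled libraries against Control, higher genes were 47.9% of all calls as deposited, 59.6% with no filter and 62.5% with small RNA genes left out. Depth limits the lowest genes: Wipi1 rests on an estimated 0 to 33 fragments per library.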

Other observations

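The authors' deposited table of Cuffdiff results holds 4122 entries, among them 12 of the 40 autophagy genes and Atg9b. All 12 are marked significant between Fosl2 Tg and the Ko-labelled libraries, and 8 between Fosl2 Tg and Control. The share of all 4122 entries marked significant was not computed, so these counts have no background and say nothing particular about the members. Whether entries were chosen by significance was not tested. In Fosl2 Tg against Control, the Cuffdiff calls differ in part from those of limma. Gabarap and Lamp2 are absent and Wipi2 is not significant (Cuffdiff q = 0.0701), whereas Map1lc3b (q = 0.0484), Nbr1 (q = 0.0166) and Atg2a (q = 0.0209) are. Between the Ko-labelled libraries and Control, 0 of the 12 are significant. Gabarapl1, called there by limma, has a Cuffdiff q of 0.0754, and Atg9b is significant (q = 0.000503). The authors' deposited table gives Gabarapl1 group FPKM values of 16.0 for Control, 9.30 for Fosl2 Tg and 19.6 in Ko-labelled libraries, and Atg9b 2.11, 1.76 and 4.54. The scale of these group values differs from that of the single libraries.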
